A study of Rattus norvegicus with 59 samples.

Results

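Akap11 encodes an A-kinase anchoring protein, a scaffold that holds protein kinase A (PKA) at particular places in the cell. The gene was followed across 5 brain regions of 2 rat lines bred for opposite alcohol preference. It is 1 of 4736 genes annotated on the array and is represented by 1 of its 8799 probe sets, U48288_at, which is the only probe set whose annotated gene symbol is Akap11. The gene was chosen by its measured line difference in these same arrays, so that difference is given as a description without a test. The tests concern questions that the mean line difference does not fix. These are whether its size varied between regions, how regions compared within a line, and what other genes of the pathway and same chromosome did. The gene was chosen with earlier results of these data known, so these tests are not wholly independent of the choice.

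In resting PKA, regulatory subunits hold the catalytic subunits inactive, and cyclic AMP releases them. Anchoring proteins bind the regulatory subunits and so decide which substrates lie within reach of the kinase. The AKAP11 protein also binds protein phosphatase 1 and glycogen synthase kinase 3, and in human cells it hands a regulatory subunit of PKA to the autophagy machinery. Cyclic AMP and PKA carry the signal of dopamine receptors in striatum and accumbens.

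The arrays hold total RNA from adult male rats of 2 inbred lines, the alcohol-preferring iP (named iP5C in the design) and the alcohol-non-preferring iNP (named iNP1). No array is labelled with an alcohol or drug treatment; all rats were pair-housed with free food and water and were handled daily before decapitation. Each array is 1 region of 1 rat, with 6 iP and 6 iNP rats in striatum, hippocampus, amygdala and accumbens, and 5 iP and 6 iNP rats in frontal cortex (called cortex here), 59 arrays in all. Each of these lines is a single inbred strain, so the gene's line difference cannot be told apart from any other difference fixed between these strains. In tissue RNA of this kind, fewer cells of a type and less RNA per cell cannot be told apart.

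The reference promoter of Akap11 is shown because the line difference is one of transcript signal and PKA itself acts on promoters through the factor CREB. It spans chr15:60365286-60365585 on the minus strand of the RefSeq rat assembly GRCr8, 250 bases before and 50 bases after the annotated start of the gene. It belongs to the reference strain, and neither line was sequenced here. Capitals mark matches, on either strand, to the short CREB site TGACG, the E-box CACGTG and the palindrome TCTCGCGAGA, which is a repeated palindrome looked for after the sequence had been read.
Akap11 promoter: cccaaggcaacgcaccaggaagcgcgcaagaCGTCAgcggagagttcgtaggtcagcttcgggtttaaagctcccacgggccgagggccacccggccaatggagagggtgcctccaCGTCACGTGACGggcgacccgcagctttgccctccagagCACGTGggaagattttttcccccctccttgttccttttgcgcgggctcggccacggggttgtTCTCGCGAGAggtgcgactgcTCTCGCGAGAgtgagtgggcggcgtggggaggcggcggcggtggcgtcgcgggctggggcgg
TGACG occurs 3 times, and 21.2% of the 33469 rat promoters of this length hold it at least in a single copy. A pair of these matches overlaps the first E-box, in a run that reads the same on both strands. The palindrome TCTCGCGAGA occurs 2 times, at -33 and -12 from the gene start, and 0.373% of promoters hold it. CACGTG occurs 2 times and is held by 6.42% of promoters. The full CREB palindrome TGACGTCA was also searched and these letters are not in the window; 1.83% of promoters hold them. The window is 67.7% G and C and contains 34 CpG dinucleotides, against a median of 7 over all promoters. These matches describe letters, and binding of any factor was not measured.

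Before the values, a few arrays need naming. The median signal of an array lay between 251 and 391. Cortex of iP animal 5 had a Gapdh signal ratio, from the probe set at the end of the transcript to that at its start, of 6.14 (log2), where the other 58 arrays reached at most 0.44. Set against the mean profile of every region, 54 of 59 arrays were nearest their own. The 5 exceptions were cortex of iP animal 5 (nearest amygdala), amygdala of iP animal 1 (nearest cortex), amygdala of iNP animals 7 and 8 (nearest accumbens) and accumbens of iP animal 4 (nearest amygdala). Of the tested markers of medium spiny neurons, such as Rgs9 and Drd1, 6 of 6 were higher in striatum and 6 of 6 in accumbens than in the other 4 regions, where 6.33% and 12.2% of all probe sets were higher. Likewise 3 of 3 cortical markers were higher in cortex (7.72% of all) and 3 of 4 hippocampal markers in hippocampus (10.8% of all). The remaining hippocampal marker, Nptx2, was lower in hippocampus (-1.05, log2), and 2 of 4 hippocampal markers were higher in amygdala. Of the amygdala markers 2 of 4 were higher in amygdala (13.3% of all) and 3 of 4 in accumbens.

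Akap11 signal was several-fold higher in iP than in iNP rats in each of the 5 regions, and no iP array overlapped any iNP array. The lowest of the 29 iP arrays (cortex of animal 3) had a signal of 873 in the array's units, and the highest of the 30 iNP arrays (cortex of animal 7) had 675, a ratio of 1.29. Over the 59 arrays pooled, 10 of 5244 probe sets, or 0.191%, separated the lines without overlap. Within a single region, such separation was seen for 1.22% of probe sets (cortex), 1.43% (striatum), 1.28% (hippocampus), 1.14% (amygdala) and 1.07% (accumbens). Signals of all arrays had been scaled to a common level by the authors, so they compare the same probe set between arrays.

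**Figure D1:**
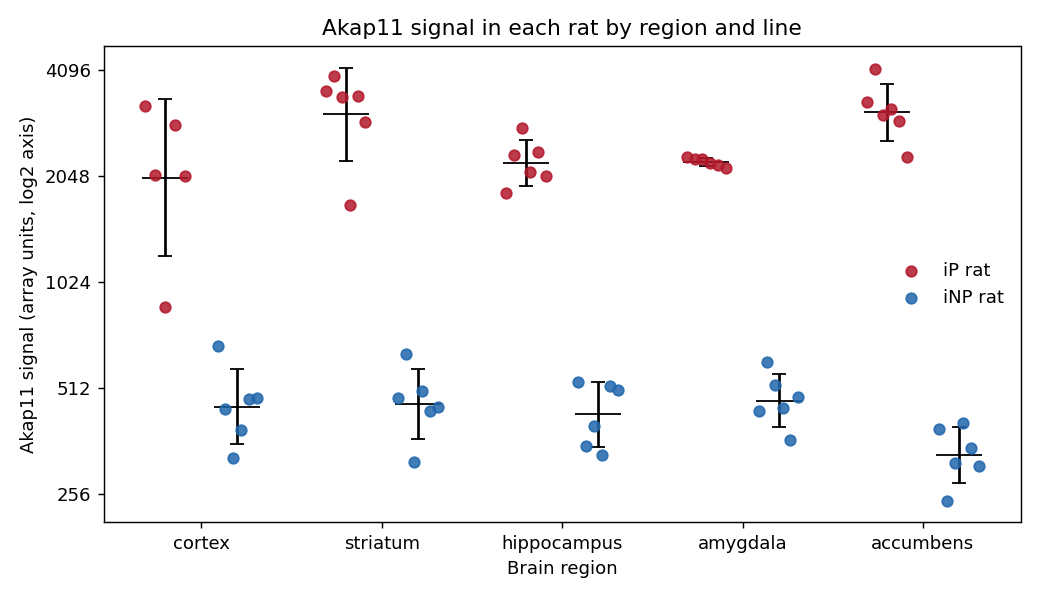
Akap11 signal of every rat (points, log2 axis, array units) in 5 brain regions, iP rats left and iNP rats right in each region; black bars give the mean of the log2 values and 1 SD either side. All iP points lie at 873 or above and all iNP points at 675 or below.

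In cortex, the 5 iP rats had signals of 3248, 2058, 873, 2858 and 2055 (animals 1 to 5), and the 6 iNP rats ran from 324 through a median of 462 to 675. Mean log2 signal was 10.99 ± 0.74 in iP and 8.82 ± 0.35 in iNP (SD, n = 5 and 6), a difference of 2.16 ± 0.36 (SE), or 4.47-fold. The iP spread was the widest of the 10 groups because animal 3 lay far under its line mates, although still over every iNP rat. The array of animal 5, with the extreme Gapdh ratio, had an ordinary iP value of 2055. Without it and the amygdala array of iP animal 1 the cortex difference was 2.16.

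In striatum, iP rats ran from 1697 through a median of 3459.9 to 3937, and iNP rats from 316 through 467 to 641. The log2 means were 11.58 ± 0.44 and 8.85 ± 0.33 (SD, n = 6 and 6), a difference of 2.73 ± 0.23 or 6.65-fold. Animal 4 supplied the low iP value, and the other 5 iP rats lay at 2924 or above.

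In hippocampus, iP rats ran from 1831 through a median of 2228 to 2805, and iNP rats from 329 through 452 to 533. The log2 means were 11.13 ± 0.21 in iP and 8.75 ± 0.31 in iNP (SD, n = 6 and 6), a difference of 2.37 ± 0.15 or 5.19-fold. The groups were far apart, the lowest iP rat being 3.44 times the highest iNP rat.

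In amygdala, iP rats ran from 2163 through a median of 2258 to 2319.7, and iNP rats from 363 through 467 to 605. The log2 means were 11.14 ± 0.04 and 8.88 ± 0.25 (SD, n = 6 and 6), a difference of 2.25 ± 0.10 or 4.77-fold. The 6 iP values were almost the same: their SD of 0.039 (log2) was undercut by 0.0572% of the tested probe sets in that group, while the iNP SD was ordinary. The iP animal 1 array, nearest cortex by its whole profile, had 2319.7, at the top of this narrow range. Without that array and cortex of iP animal 5 the amygdala difference was 2.25.

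In accumbens, the part of the ventral striatum tied to reward, iP rats ran from 2317 through a median of 3117 to 4124, and iNP rats from 245 through 329 to 407. The log2 means were 11.60 ± 0.27 and 8.37 ± 0.27 (SD, n = 6 and 6), a difference of 3.24 ± 0.16 or 9.44-fold. The lowest iP rat was 5.69 times the highest iNP rat. The iNP mean was the lowest of any region, and the iP mean lay beside that of striatum (11.58) above the other 3 regions.

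With each rat averaged over its regions after the regional level was removed, the difference was 2.55 ± 0.08 (log2, SE; n = 6 and 6 rats), 5.88-fold. The rat means lay between 11.13 and 11.45 in iP and between 8.50 and 8.93 in iNP, with an SD of 0.14 in each line. Only the gene Hs6st1, a heparan sulfate sulfotransferase, differed by more in absolute size. In each region the Akap11 difference ranked between 2 and 4 of 5244. Hs6st1 also had its widest line difference in accumbens (4.95, log2) and its narrowest in cortex (3.44), where its lines overlapped. The Akap11 difference was also narrowest in cortex with all arrays, but without the cortex array of iP animal 3 it was 2.47 there, above hippocampus (2.37) and amygdala (2.25).

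**Figure D2:**
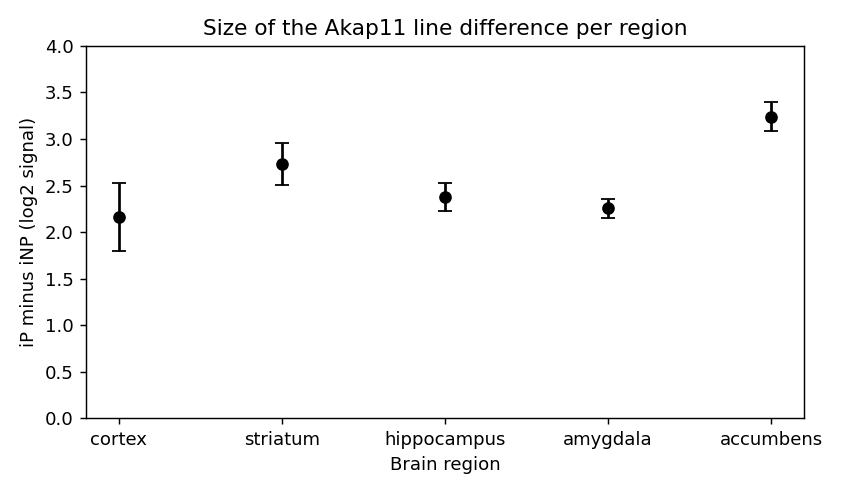
Line difference of Akap11 in each region as iP minus iNP of the mean log2 signal, with 1 SE. The points run from 2.16 in cortex to 3.24 in accumbens.

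Placed in order of the log2 mean, the 10 groups began with iP accumbens (11.60) and iP striatum (11.58), followed by iP amygdala (11.14), iP hippocampus (11.13) and iP cortex (10.99). The iNP groups followed, with amygdala (8.88), striatum (8.85), cortex (8.82) and hippocampus (8.75) close together and accumbens (8.37) last. Neighbours in this order differed by less than the larger SD of the pair, with 3 exceptions. These were the step between iP striatum and iP amygdala (0.45, or 1.02 SD), the step between the lines (2.10, or 2.85 SD) and the step between iNP hippocampus and iNP accumbens (0.39, or 1.26 SD). Striatum and accumbens thus shared the top in iP, but in iNP they lay apart.

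Whether the line difference varied between regions was tested with limma across all 5244 probe sets, with the rat as a block. Akap11 ranked 12 by p in the table (F = 4.83, limma unadjusted p = 0.00262) and did not pass after Benjamini-Hochberg adjustment (limma adjusted p = 0.956). No probe set passed (0%), and 242 had an unadjusted p under 0.05. Taken region by region, the accumbens difference exceeded the mean of the other 4 by 0.87 ± 0.23 (log2, SE). Its limma p was 0.000407 unadjusted and 0.387 after adjustment over all probe sets, with 0% of probe sets called. The cortex difference was smaller than the mean of the others by an estimated -0.52 ± 0.24 (limma adjusted p = 0.968), or by -0.20 without the cortex array of iP animal 3, and those of striatum (0.23), hippocampus (-0.21) and amygdala (-0.36) did not pass either. These contrasts called 0% of probe sets, except hippocampus with 0.0191%.

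The same contrast was compared directly between rats. In each of the 11 rats with all 5 regions, the mean of the other 4 regions was subtracted from accumbens. The 5 iP rats had 0.33, 0.68, 0.54, 0.54 and 0.24 (log2, animals 1 to 5), all above 0, and the 6 iNP rats had -0.43, -1.02, -0.29, -0.02, -0.36 and -0.65 (animals 7 to 12), all below 0. Accumbens was thus above the mean of the other 4 regions in these iP rats and under that mean in the iNP rats, although not above or under each single region. The means differed by 0.93 (exact permutation test over 462 splits of the rats, two-sided p = 0.00433; 0.0216 after Benjamini-Hochberg adjustment over the 5 regions). The smallest p these splits can give is 0.00216. Among all tested probe sets, 2, or 0.0381%, had every iP rat on one side of 0 and every iNP rat on the other in accumbens. By the same test cortex (-0.52, exact p = 0.171), amygdala (-0.39, exact p = 0.0736), hippocampus (-0.22, exact p = 0.327) and striatum (0.21, exact p = 0.448) did not pass.

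**Figure D3:**
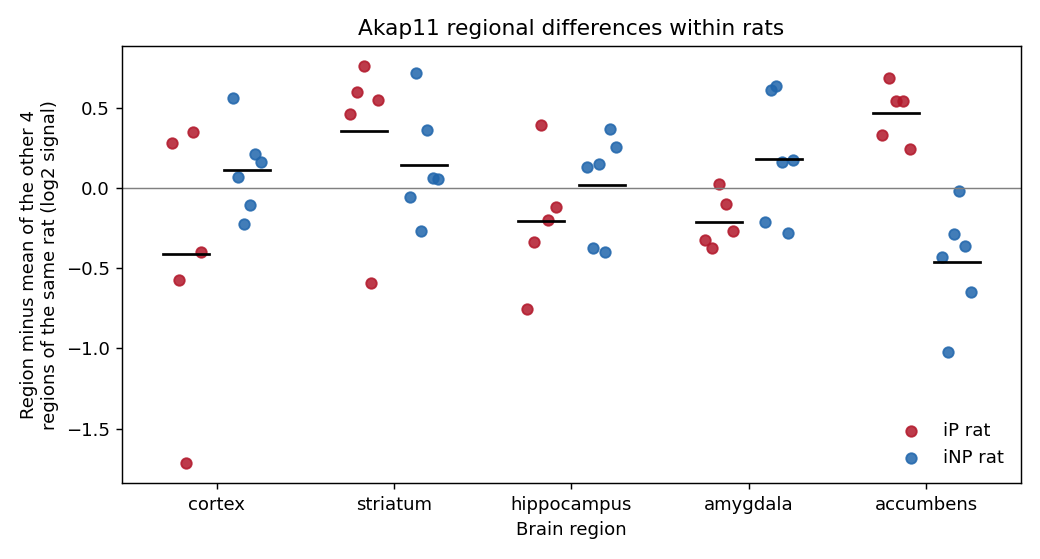
Akap11 in each region minus the mean of the other 4 regions of the same rat (log2 signal), for the 5 iP rats (left) and 6 iNP rats (right) with all regions; black lines are group means. In accumbens the iP rats lie between 0.24 and 0.68 and the iNP rats between -1.02 and -0.02.

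The sixth iP rat, whose cortex was not analysed here, was outside that comparison. Against striatum, hippocampus and amygdala alone its accumbens stood at -0.02, while the other 5 iP rats stood between 0.12 and 0.67 and the iNP rats between -1.07 and -0.05. The pairs of regions were not alike. Accumbens exceeded hippocampus in 6 of 6 iP rats against 1 of 6 iNP rats, and amygdala in 6 of 6 iP rats against 0 of 6 iNP rats. Accumbens exceeded striatum in 2 of 6 iP rats against 0 of 6 iNP rats, with mean differences of 0.02 ± 0.46 in iP and -0.49 ± 0.47 in iNP (log2, SD).

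Within a line, limma on the whole table called no regional difference of Akap11. Within iNP, accumbens differed from the other 4 regions by -0.46 ± 0.16 (log2, SE), a value at the threshold (limma adjusted p = 0.0501, where 11.8% of probe sets passed). It passed with no replicate block (adjusted p = 0.0453) and without the 5 arrays nearest another region (adjusted p = 0.0492). In 13 of 25 alternatives it did not pass, and leaving out 1 rat gave values as small as -0.35 and a limma adjusted p up to 0.221. Within iP, accumbens was at 0.40 ± 0.16 (adjusted p = 0.10, with 11.8% called), striatum at 0.38 ± 0.16 (adjusted p = 0.162, with 6.14% called) and cortex at -0.41 ± 0.17 (adjusted p = 0.160, with 7.78% called). Without the cortex array of iP animal 3 the cortex value within iP was -0.085 (adjusted p = 0.872). Hippocampus (-0.19, 14.6% called) and amygdala (-0.18, 15.8% called) did not pass within iP. Within iNP, cortex (0.11, 10.9% called), striatum (0.15, 6.14% called), hippocampus (0.02, 12.8% called) and amygdala (0.18, 11.5% called) did not pass.

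Averaged over both lines the accumbens value was -0.03 ± 0.11 (limma adjusted p = 0.905), since the lines lay on opposite sides. Striatum stood at 0.26 ± 0.11 (adjusted p = 0.122), cortex at -0.15, hippocampus at -0.09 and amygdala at 0.00. Between 14% (striatum) and 25.9% (amygdala) of probe sets were called in these regional contrasts, 16.8% in cortex, 23.3% in hippocampus and 20.8% in accumbens. Without striatum of iP animal 4 the striatum value was 0.36 (adjusted p = 0.0203).

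Markers of other cell types differed between these regions as well, and their part in the Akap11 values was not tested. Of 4 blood and vessel markers, 2 were higher in accumbens, where 12.2% of all probe sets were higher. These were the red blood cell genes Hbb (0.65, log2) and Alas2 (0.60), while the vessel genes Flt1 (0.05) and Pecam1 (-0.03) did not pass there. The summed signal of all 4 in accumbens ran from 24773 to 40530 in iP rats and from 33859 to 50646 in iNP rats. Of 5 oligodendrocyte markers, 4 were higher in striatum, where 6.33% of all probe sets were higher, and 3 in accumbens, where their summed signal ran from 71368 to 81419 in iP rats and from 66000 to 94440 in iNP rats. Of 5 astrocyte markers, 0 were higher in either region and 1 was lower in accumbens (S100b, -0.31, log2). Of 4 microglial markers, 2 were higher in accumbens and 0 passed in striatum; their summed signal in accumbens ran from 9663 to 12675 in iP rats and from 10644 to 12414 in iNP rats. Of 3 choroid plexus markers, 1 was higher in accumbens and 2 were lower in striatum; their summed signal in accumbens ran from 5997 to 9302 in iP rats and from 4172 to 7978 in iNP rats. In either direction, 14% of all probe sets passed in striatum and 20.8% in accumbens. Between the lines over all regions, where 2.65% of all probe sets passed, 0 of 5 oligodendrocyte and 0 of 5 astrocyte markers passed, 1 of 4 microglial markers did (P2ry12, at -0.77 iP minus iNP, log2) and 1 of 4 blood and vessel markers did (Pecam1, -0.47). Of the 3 choroid plexus markers, 0 passed between the lines.

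Rats of a line did not differ in Akap11 level across their regions beyond the spread between arrays (limma F test of animals within line, adjusted p = 0.785; 4.92% of probe sets passed). The low iP values in cortex and striatum belonged to different rats, animal 3 in cortex and animal 4 in striatum. After the mean of each region and line was removed, Akap11 correlated across the 59 arrays at 0.15 with the median signal of the array and at -0.02 with the Gapdh ratio. The r with the Gapdh ratio rests mostly on cortex of iP animal 5 (6.14, log2, where the others reached at most 0.44). It therefore says little about the other arrays.

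No tested gene of the PKA pathway around Akap11 passed the test of the line difference. Lists of 87 genes were drawn up in 5 groups, of which 53 were on the array, 12 lay under the signal filter and 41 were tested. None of the 41 passed over all regions by limma, where 139 of 5244 probe sets, or 2.65%, passed. At an unadjusted p under 0.05 there were 6 of 41 (14.6%), against 11.9% of all tested probe sets. In single regions 0 of 41 passed as well, while the share of all probe sets that passed was 0.229% (cortex), 0.839% (striatum), 0.667% (hippocampus), 0.725% (amygdala) and 0.572% (accumbens).

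Of the anchoring protein family, 7 of 25 listed genes were tested, and their median line difference was -0.04 (log2, iP minus iNP), against -0.01 over all tested probe sets. Map2, a microtubule protein that also anchors PKA, differed by 0.04 ± 0.05, with log2 means of 12.78 in iP and 12.74 in iNP. Ezr, the membrane-to-actin linker ezrin, differed by -0.15 ± 0.06 (limma adjusted p = 0.285), and Pakap, the rat name of the gene that includes Akap2, by 0.05 ± 0.09. Akap12, a scaffold also known as gravin and picked out after its value was seen, had the widest difference of the family, 0.45 ± 0.15, and did not pass (adjusted p = 0.186). It did pass with array weights (0.55, adjusted p = 0.0479) and without iNP animal 7 (0.56, adjusted p = 0.0392). Akap4, Akap5 and Akap14 lay under the signal filter.

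Among the subunits and inhibitors of PKA itself, all 7 tested members of 9 listed lay between -0.06 and 0.09 (log2), with a median of -0.01. Prkar1b, a regulatory subunit abundant in brain, differed by -0.06 ± 0.09, the catalytic subunit gene Prkacb by 0.09 ± 0.05 and the regulatory subunit gene Prkar1a by -0.06 ± 0.06. Their adjusted p-values by limma were 0.864, 0.497 and 0.784.

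Among genes for proteins that bind AKAP11 or belong to the machinery it meets, 7 of 13 were tested, with a median of -0.00. Map1lc3a and Gabarap, small proteins that mark autophagosomes, differed by -0.06 ± 0.07 and -0.00 ± 0.05. Ppp1ca, a catalytic subunit of protein phosphatase 1, differed by 0.04 ± 0.09. Gsk3b, picked out after its value was seen as the widest of this group, had log2 means of 8.84 in iP and 9.17 in iNP, a difference of -0.33 ± 0.14 that did not pass (limma adjusted p = 0.327).

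Enzymes that make and break cyclic AMP had a median of -0.04 over 10 tested of 25 listed and lay between -0.34 and 0.07 (log2). Adcy2, an adenylyl cyclase, differed by 0.06 ± 0.06 and the phosphodiesterase gene Pde2a by 0.00 ± 0.08. Effectors and targets of PKA had a median of -0.02 over 10 tested of 15 and lay between -0.13 and 0.27. Stmn1, which encodes the microtubule-destabilising protein stathmin, differed by 0.01 ± 0.11 and the synaptic vesicle gene Syn1 by -0.05 ± 0.05. Creb1, the CREB gene, differed by -0.06 ± 0.09 and is named outside the rule because its site was searched in the promoter.

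**Figure D4:**
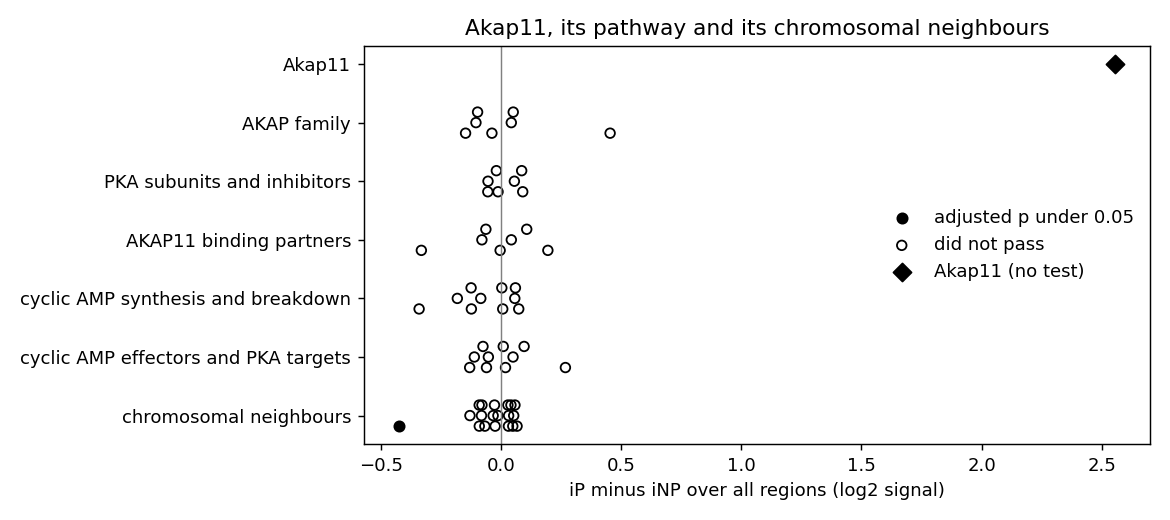
Line difference over all regions (iP minus iNP, log2 signal) of Akap11 (diamond, not tested), of the 41 tested pathway genes by group and of 19 chromosomal neighbours. Open circles did not pass the limma test; the filled circle is Gpalpp1 at -0.42. Akap11 stands at 2.55 and the widest pathway gene at 0.45.

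Akap11 lies on chromosome 15 of the rat gene table, and the line difference of its neighbours was read from the same fit. The nearest tested genes by order were taken, 10 before Akap11 and the 9 that were available after it. The closest tested gene was Dgkh, a diacylglycerol kinase gene with 1 annotated gene between it and Akap11. Its log2 means were 8.98 in iP and 9.08 in iNP, a difference of -0.09 ± 0.08 (limma adjusted p = 0.707). On the other side came Tsc22d1, a transcription regulator gene with 21 genes between, at -0.13 ± 0.05 (adjusted p = 0.220).

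Of the 19 neighbours, 1 passed, Gpalpp1, with 35 genes between; 1.45% of all probe sets passed as lower in iP and 1.2% as higher. Its log2 means were 8.58 in iP and 9.00 in iNP, a difference of -0.42 ± 0.06 (limma adjusted p = 0.000459) and opposite in sign to Akap11. Without the filter on dim probe sets a further neighbour passed, Naa16, at 0.80 (limma adjusted p = 0.00186), the same sign as Akap11. Over the neighbours the median was -0.03 and the median absolute difference 0.05, against 0.07 for all tested probe sets, of which 2.65% passed. In single regions 0 of the 19 passed.

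The 8 genes named for the highest and lowest correlation with Akap11 over the 59 arrays all passed the test of the line difference over all regions, where 2.65% of probe sets passed. That follows from how they were picked and is not a separate result. Akap11 was chosen for its line difference, so an extreme correlation with it over all arrays selects genes that differ between the lines. Pearson's r was 0.92 for Hs6st1, 0.90 for Arpc4, a subunit of the Arp2/3 complex that branches actin, 0.86 for the glycolytic gene Pgk1, 0.81 for the vesicle transport gene Tmed2 and 0.79 for the membrane transporter gene Mfsd10. The lowest were -0.90 for Sdhaf2, an assembly factor of mitochondrial complex II, -0.89 for the glutathione transferase gene Gsta4 and -0.84 for Tmtc3. All points share the 2 lines, and 95% of tested probe sets had an r between -0.34 and 0.32.

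With the mean of each region and line removed, 4 of these 5 highest fell inside the range of most probe sets. The r then was 0.00 for Hs6st1, 0.09 for Pgk1, 0.19 for Tmed2, -0.17 for Mfsd10 and 0.44 for Arpc4. The closest genes on this measure were Nmu, which encodes the neuropeptide neuromedin U (0.70), the activity-induced nuclear receptor gene Nr4a1 (0.66), the inhibin subunit gene Inha (0.61), Bloc1s2 (0.60) and Cwc25 (0.58), against -0.33 to 0.37 for 95% of probe sets. The points are arrays and share scaling and array quality. Without the cortex array of iP animal 3, r was 0.67 for Nmu, 0.58 for Nr4a1, 0.47 for Inha, 0.37 for Bloc1s2 and 0.32 for Cwc25. None of these 5 genes differed between the lines over all regions beyond the threshold.

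With a single probe set for Akap11, a line difference in transcript level cannot be told apart from a sequence difference between the lines under its probes.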

How the data were processed

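Total RNA of each rat and region was labelled with biotin and hybridised separately, per the labels' protocols. The deposited file gives 1 intensity for each probe set and array, not log transformed; which program computed them is not stated in the labels. The mean of each array without the top and bottom 2% of probe sets was 1000, so the authors had scaled the arrays to a common level and no scaling was added. Signals under 16 were set to 16 (Akap11 had none) and log2 transformed. The 59 control probe sets and the 40% with the lowest mean were left out, leaving 5244. A single gene symbol is annotated for 7006 of the other 8740, more than 1 for 308 and none for 1426; 6985 were matched by gene ID to the GRCr8 gene table. For a gene with several probe sets the brightest stands.

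The R package limma (3.58.1, under R 4.3.3) fitted iP minus iNP and the regional contrasts (moderated tests with an intensity trend, Benjamini-Hochberg adjustment over 5244, threshold 0.05, two-sided). Regional contrasts had the rat as a fixed block, since the animal numbers in the titles mark the same rat; the consensus correlation of its arrays was 0.049. The arrays' source name gives the iNP line throughout and was not used: titles and genotype labels gave the groups. Fits were tested on simulated data with independent noise for each array and no rat effect or outlying array. That checks how the fits run and not how they behave on these arrays. Precision is limited by the number of rats.

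The gene and the lists were chosen with earlier results of these data known. Named genes are called members and the 3 brightest uncalled members of the first 3 lists (2 for the others), called and nearest neighbours, and the closest correlations; exceptions are stated. Alternatives were another floor, filter, normalization, trend, array weights or block, exact permutation, gene means and leaving out rats or arrays.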

Additional observations from a re-analysis of the deposited data

Results flagged for a closer look

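The striatum array of iP animal 4 stood apart from its group in Akap11, with a log2 signal of 10.73, where the gap to the next iP rat was 0.646 of the group's whole range. Chance flags about 1 in 20 groups, and 12 groups were examined for Akap11. The same rat's cortex (2858) and accumbens (3186) signals were within the iP range.

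The accumbens result was the other: within rats, accumbens minus the other 4 regions was above 0 in 5 of 5 iP rats and below 0 in 6 of 6 iNP rats, a difference of 0.93 (log2) between the lines (exact permutation p = 0.00433, two-sided, 11 rats; 0.0216 after adjustment over 5 regions). The limma test over all probe sets did not call it (adjusted p = 0.387). The comparison leaves out iP animal 6, which has no cortex array and stood at -0.02 against its striatum, hippocampus and amygdala. The permutation was not repeated without single arrays.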

How the results depend on the processing

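Of 1162 recomputed values, 1105 stayed the same, 18 passed only under the alternative, 17 changed sign and 22 moved. Part of this was fixed in advance. All Akap11 signals lay above the alternative floors of 32 and 1, so its estimates could not change there. Leaving out a rat of a line cannot move the estimate within the other line. For 470 contrasts, staying the same means keeping direction and side of the threshold, and for 48 F tests keeping the side. The line differences, counts and correlations were not set against a threshold, and for them it means a change within a set limit. Those that moved were 17 counts and 5 correlations. The line difference of Akap11 ranged, over leaving out 1 rat at a time, from 1.99 to 2.47 (log2) in cortex, 2.62 to 2.90 in striatum, 2.30 to 2.44 in hippocampus, 2.18 to 2.33 in amygdala and 3.15 to 3.32 in accumbens. The excess in accumbens lay between 0.75 and 0.95 without 1 rat, and passed only as the exact permutation (0.93).

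Within iNP, accumbens (-0.46) lay at the threshold and passed with no replicate block, with the rat as random block, with 60% of probe sets dropped, without cortex of iP animal 5 and amygdala of iP animal 1, without cortex of iP animal 3, without striatum of iP animal 4, without the 5 arrays nearest another region (-0.46) and with quantile normalization (-0.56, adjusted p = 0.0115). Settings that drop only iP arrays keep the iNP estimate at -0.46 and change only its error and adjusted p. They do not recheck the iNP rats. Leaving out 1 rat gave -0.55 to -0.35 (limma adjusted p 0.0196 to 0.221). Without striatum of iP animal 4, striatum passed in the mean of lines (0.36) and within iP (0.58, limma adjusted p = 0.0246); leaving out 1 rat gave 0.21 to 0.37 and 0.29 to 0.58, both passing without iP animal 4. Cortex within iP ran from -0.60 to -0.085, passing without iP animal 4 (limma adjusted p = 0.0308).

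The values that changed sign did not pass the test. In the mean of lines, cortex was 0.013 without cortex of iP animal 3, and ran from -0.245 to 0.013 without 1 rat. Amygdala was -0.040 without that array, -0.023 without striatum of iP animal 4, -0.0038 with no replicate block and -0.0030 with a random replicate block, and -0.045 to 0.047 without 1 rat. Accumbens ran from -0.073 to 0.028. Within iNP, hippocampus ran from -0.048 to 0.11. The block changed no other regional call of Akap11.

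Called neighbours, picked anew from the genes each filter left, numbered 2 with no filter on dim probe sets and 0 with 60% dropped. Called anchoring proteins numbered 1 with array weights and 0 to 1 without 1 rat. Over all probe sets, line calls in cortex (12) became 37 with array weights, 24 without cortex of iP animal 5 and amygdala of iP animal 1, 56 with a random block and 9 to 24 without 1 rat. Amygdala calls (38) became 59 with a random block and 24 to 52 without 1 rat, and accumbens calls (30) became 19 with 60% dropped, 51 with a random block and 18 to 39 without 1 rat. The cause of these moves was not tested. Alternatives that leave out single arrays were chosen after seeing the data, except the pair cortex of iP animal 5 and amygdala of iP animal 1.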
